A study of Mus musculus with 9 samples.

Results

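The MYC and MAX network is a family of transcription factors with a basic helix-loop-helix leucine zipper that act in pairs. MAX is the shared partner. Paired with MYC, MYCN or MYCL it binds E-boxes, the sequence CACGTG, and raises transcription of genes for ribosome making, growth and division, whereas paired with an MXD protein, MXI1 or MNT it recruits SIN3 and histone deacetylases to the same sites and represses them. MLX is a second hub, which pairs with some of the MXD proteins, with MNT and with the glucose-sensing factors MLXIP and MLXIPL. In melanoma, as in many tumours, MYC is known as a driver of growth and a short-lived protein, so its transcript level is only part of its control.

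The genes were taken by name from the deposited tables: Myc, Mycn, Mycl, Max, Mxd1, Mxd3, Mxd4, Mxi1, Mnt and Mlx. Of these 10 genes, 9 were among the 21676 genes of the tables and all 9 were among the 13807 genes tested, while Mycn was not analysed here. The members and the other gene lists were chosen with earlier results of these data known.

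The 9 libraries came from cultures of the mouse melanoma line B16, kept in DMEM with serum. The hairpin shAD4-1, the hairpin shAD4-2 and a control hairpin gave 3 libraries each, and the design text calls the first 2 groups knockdown derivatives of B16 with biological replicates. By its title the study is about ADGRL4, a receptor of the adhesion GPCR family. That gene was not analysed here, so the extent of the knockdown carries no check. The labels name a single derivative for each hairpin. P-values therefore measure the spread between libraries of these lines.

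The libraries held 31319244 to 36880496 counted reads. Among the controls replicate 1 was the odd library, with a chi-square per degree of freedom of 12.3 and 17.8 against them and 3.41 between those. Melanocyte genes (Mlana, Pmel, Dct, Tyr, Tyrp1, Sox10 and Mitf) were all detected. Their summed levels were 9882 to 10095 CPM in shAD4-1, 10718 to 11717 in shAD4-2 and 11066 to 12684 in control libraries. CPM are counts scaled to the library total times the TMM factor of the library. Leukocyte, endothelial and keratinocyte markers listed in the tables summed to at most 0.283 CPM in any library. Fibroblast markers summed to 7.03 to 8.95, 7.7 to 8.6 and 4.25 to 6.54 CPM in the same order of groups, from Col1a1 and Pdgfra. Lum had at most 0.0284 CPM. The mitochondrially encoded protein genes took 3.62 to 3.81% of the reads in shAD4-1, 3.6 to 3.89% in shAD4-2 and 2.3 to 2.61% in control libraries. Neither the fibroblast nor the mitochondrial values overlapped between either hairpin and control. The melanocyte sums were lower in shAD4-1 than in control libraries without overlap, while those of shAD4-2 overlapped with control. The part of these differences in the results was not tested.

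The comparison of each hairpin with control asked whether the network's transcripts changed. With both hairpins Myc and its antagonist Mnt rose about equally, Mxd4 and Mxd3 fell, Mxd1 fell slightly, and the hubs Max and Mlx moved little or did not pass the test. Of the 9 tested members, 6 were called with shAD4-1, 3 higher and 3 lower, and 6 with shAD4-2, again 3 higher and 3 lower (edgeR quasi-likelihood test, Benjamini-Hochberg adjusted p below 0.05). Over all tested genes 65% were called with shAD4-1 and 69% with shAD4-2. The share of members called was 66.7% in each, close to that background, so the count itself does not set the network apart. By size, 4 members with shAD4-1 and 2 with shAD4-2 were called at 2-fold or more. Of all tested genes 13% and 15.6% differed by that much, called or not. Counted in that way Mycl, at 2.44-fold and not called, would join the members with shAD4-1. Members had a median absolute log2 fold change of 1.01 and 0.89, beside 0.336 and 0.377 over all tested genes. These medians count Mycl, at 1.29 and 0.96, which has few reads and was not called. Mycl, with 6, 6 and 7 reads in control libraries, passed the filter on low counts only through hairpin libraries. Its change is therefore not independent of that filter and lends no weight to the medians. Without Mycl the median with shAD4-1 would fall between the absolute changes of Mxd1 (-0.23) and Mnt (1.01). With shAD4-2 it would fall between those of Mxd1 (-0.33) and Mxd3 (-0.89). The CPM of hairpin and control libraries did not overlap for 6 members with shAD4-1 and 7 with shAD4-2, beside 68% and 70.6% of all tested genes. The comparisons share the 3 control libraries. In bulk RNA a smaller share of cells with a transcript and less of it per cell cannot be told apart.

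**Figure D1:**
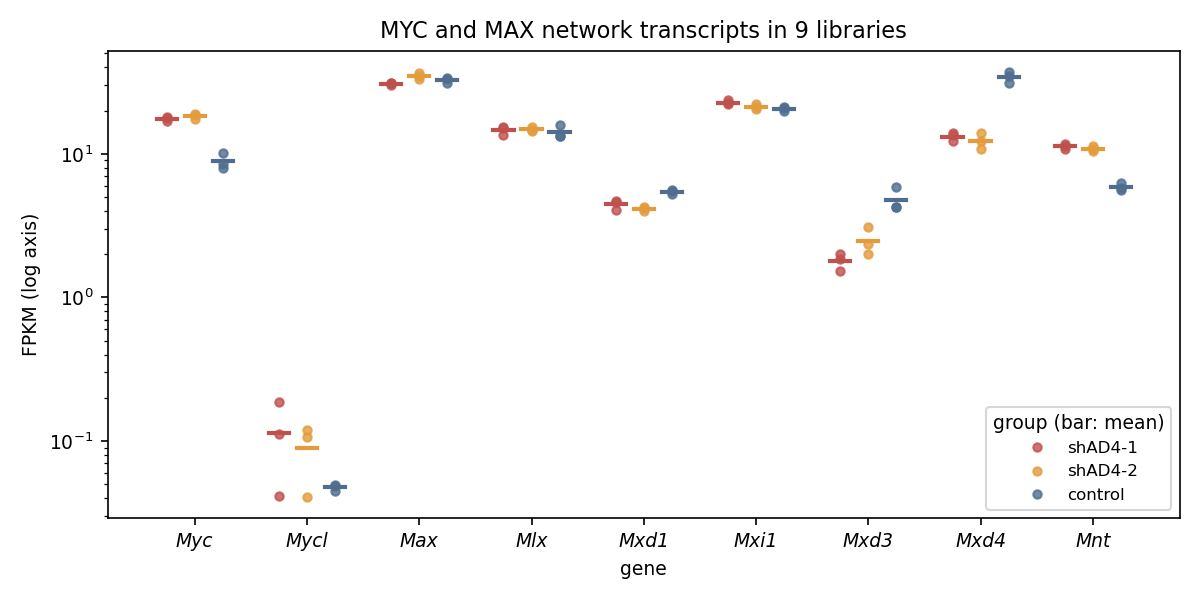
Transcript level of each listed member in FPKM (reads scaled by gene length and library total, log axis) in every library, by group, with the mean as a bar. Myc and Mnt lie higher and Mxd3 and Mxd4 lower in every hairpin library than in every control library, while Max, Mlx and Mxi1 lie close together in the 3 groups.

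Among the activators, Myc had 18.0, 17.7 and 17.0 FPKM in shAD4-1 cells, 17.4, 18.7 and 19.0 FPKM in shAD4-2 cells, and 10.1, 8.46 and 8.02 FPKM in control cells. Every hairpin library was above every control library, and the highest control was replicate 1. The rise was 2.07-fold with shAD4-1 (log2 fold change 1.05, SE 0.07, edgeR adjusted p = 4.27e-10) and 2.16-fold with shAD4-2 (1.11, SE 0.07, edgeR adjusted p = 1.63e-10). A change of at least this size was seen in 11.8% of all tested genes with shAD4-1 and 13.1% with shAD4-2, so it was sizeable but not exceptional among these libraries. Between the hairpins the log2 difference, shAD4-2 over shAD4-1, was 0.06, with a 95% interval of -0.07 to 0.2 (1.96 SE either way).

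Mycl, the L-MYC paralog, stood near the limit of detection. It had 16, 26 and 6 reads in shAD4-1 libraries, 17, 5 and 13 in shAD4-2 libraries and 6, 6 and 7 in control libraries. The groups overlapped, and neither comparison passed the test (edgeR adjusted p = 0.0569 and 0.162). Without shAD4-1 replicate 3, which holds 6 reads, the first was called (log2 fold change 1.69, edgeR adjusted p = 0.0142). Without shAD4-1 replicate 2, which holds 26 reads, the log2 fold change of that comparison was 0.74 (edgeR adjusted p = 0.337). No statement on Mycl is thus firm at this depth. At a mean of at most 0.113 FPKM in any group, Mycl added almost nothing to the MYC transcripts in these cells.

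The neighbour of Myc on the chromosome, the long noncoding RNA gene Pvt1, went the other way. Pvt1 had 35.3, 34.1 and 34.2 CPM in shAD4-1 libraries, 30.2, 30.1 and 30.4 CPM in shAD4-2 libraries and 52.4, 73.7 and 71.6 CPM in control libraries. All hairpin libraries were below all control libraries. Pvt1 was 1.91-fold lower with shAD4-1 (log2 fold change -0.93, SE 0.09, edgeR adjusted p = 3.9e-08) and 2.18-fold lower with shAD4-2 (-1.13, SE 0.09, edgeR adjusted p = 3.18e-09). Myc and Pvt1 thus moved in opposite directions with each hairpin, and control replicate 1 lay nearest to the hairpin libraries for both genes.

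**Figure D2:**
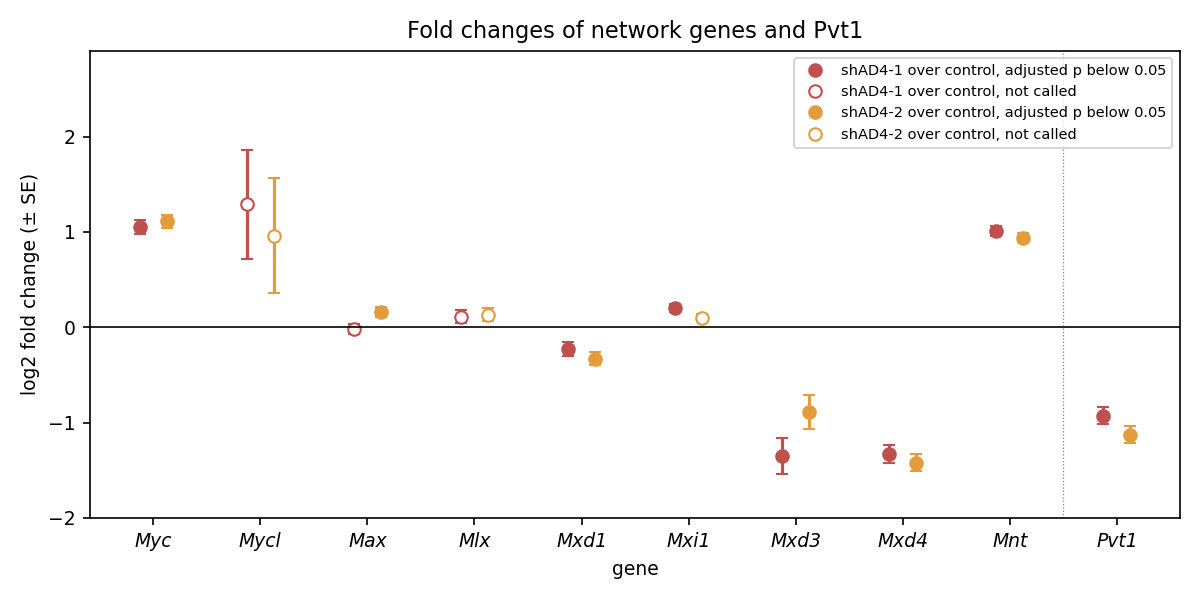
Log2 fold change of each member and of Pvt1 over control (points) with its SE (bars) for shAD4-1 and shAD4-2. Filled points passed an adjusted p of 0.05 in edgeR. Myc at 1.05 and 1.11 and Mnt at 1.01 and 0.94 stand opposite Mxd4 at -1.33 and -1.42, and the wide bars of Mycl reflect its few reads.

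Max, the obligate partner of MYC, was the only tested member called between the hairpins, and its changes were small. It had 31.2, 30.9 and 30.0 FPKM in shAD4-1 cells, 34.9, 36.5 and 33.2 FPKM in shAD4-2 cells, and 33.5, 30.9 and 33.0 FPKM in control cells. On the FPKM scale shAD4-2 overlapped control, while on the CPM scale with TMM factors its libraries lay above all controls. With shAD4-2 Max was 1.12-fold higher than control (log2 fold change 0.16, SE 0.05, edgeR adjusted p = 0.00466), a call that was lost on log2(FPKM + 1) (0.1, limma adjusted p = 0.0544). With shAD4-1 it did not pass the test (log2 fold change -0.02, 95% interval -0.11 to 0.07, edgeR adjusted p = 0.699). The difference between the hairpins was itself tested and called, at a log2 fold change of 0.18 for shAD4-2 over shAD4-1 (SE 0.05, edgeR adjusted p = 0.00651). Max was the only one of the 9 tested members called in that comparison, beside 27.4% of all tested genes called, 13.4% higher and 14% lower. A change of at least the size of that of Max was seen in 40.5% of all tested genes. Mxd3 (0.46) and Mycl (-0.33) differed by more between the hairpins and were not called. The libraries of the hairpins did not overlap for 2 members, Max and Mxi1, beside 44.5% of all tested genes.

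Mlx, the second hub, had 13.5, 15.0 and 15.4 FPKM in shAD4-1 cells, 15.3, 14.4 and 14.7 FPKM in shAD4-2 cells and 15.8, 13.3 and 13.3 FPKM in control cells. On the FPKM scale control replicate 1 was the highest of the 9 libraries and the other controls the lowest. On the CPM scale with TMM factors shAD4-1 replicate 3 (39.8) and shAD4-2 replicate 1 (39.6) lay above control replicate 1 (39.2). Neither comparison passed the test, at log2 fold changes of 0.11 (SE 0.07, edgeR adjusted p = 0.176) and 0.13 (SE 0.07, edgeR adjusted p = 0.122). Without control replicate 1 both were called, at 0.2 (edgeR adjusted p = 0.0065) and 0.22 (edgeR adjusted p = 0.0031). Exons of Mlx overlap those of Psmc3ip, a recombination gene on the opposite strand, in GENCODE M21. Psmc3ip averaged 12.1 ± 0.708 CPM in shAD4-1, 16.4 ± 1.61 CPM in shAD4-2 and 11.8 ± 0.422 CPM in control libraries (SD, n = 3). No source states whether counting used strand, and the share of Psmc3ip in the Mlx reads was not tested.

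Mnt encodes a MAX-binding repressor that antagonises MYC and is known to be present in dividing as well as resting cells. It had 11.7, 11.4 and 10.8 FPKM in shAD4-1 cells, 11.3, 10.8 and 10.4 FPKM in shAD4-2 cells and 5.59, 5.76 and 6.24 FPKM in control cells. All hairpin libraries were above all control libraries. Mnt rose 2.01-fold with shAD4-1 (log2 fold change 1.01, SE 0.05, edgeR adjusted p = 7.6e-12) and 1.92-fold with shAD4-2 (0.94, SE 0.05, edgeR adjusted p = 1.79e-11). The hairpins differed by -0.07 on the log2 scale, with a 95% interval of -0.17 to 0.03.

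Mxd4 (MAD4) and Mxd3 (MAD3) encode repressors of the MXD branch, MXD4 known from differentiating cells and MXD3 from cells in S phase. Mxd4 had 13.9, 13.4 and 12.2 FPKM in shAD4-1 cells, 12.3, 10.8 and 14.0 FPKM in shAD4-2 cells and 31.3, 37.1 and 34.9 FPKM in control cells. The gap between the hairpin and the control libraries was wide on this scale. Mxd4 was 2.52-fold lower with shAD4-1 (log2 fold change -1.33, SE 0.09, edgeR adjusted p = 2.8e-10) and 2.68-fold lower with shAD4-2 (-1.42, SE 0.09, edgeR adjusted p = 1.1e-10). At least as large a change was found in 8.02% of all tested genes with shAD4-1 and in 8.8% with shAD4-2. Exons of Mxd4 overlap those of Gm42846, an antisense gene on the opposite strand, in GENCODE M21. Gm42846 was not among the counted genes, and its share in the Mxd4 reads was not tested.

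Mxd3 had 1.85, 2.02 and 1.52 FPKM in shAD4-1 cells, 2.37, 1.99 and 3.09 FPKM in shAD4-2 cells and 5.85, 4.28 and 4.24 FPKM in control cells, from 73 to 239 reads a library. The hairpin libraries lay below the controls, with shAD4-2 replicate 3 the highest among them. Mxd3 was 2.55-fold lower with shAD4-1 (log2 fold change -1.35, SE 0.19, edgeR adjusted p = 5.24e-06) and 1.85-fold lower with shAD4-2 (-0.89, SE 0.18, edgeR adjusted p = 0.000331). The difference between the hairpins was 0.46 (SE 0.2) and did not pass the test (edgeR adjusted p = 0.0953). Exons of Mxd3 overlap those of Prelid1, a far more abundant gene on the opposite strand, in GENCODE M21. Prelid1 averaged 163 ± 3.57 CPM in shAD4-1, 156 ± 3.21 CPM in shAD4-2 and 186 ± 3.56 CPM in control libraries (SD, n = 3), 1.15-fold and 1.2-fold lower with the hairpins, and its share in the Mxd3 reads was not tested.

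Mxd1 (MAD1), the founding MXD repressor, changed far less. It had 4.62, 4.04 and 4.68 FPKM in shAD4-1 cells, 4.18, 3.98 and 4.29 FPKM in shAD4-2 cells and 5.24, 5.59 and 5.47 FPKM in control cells. Neither hairpin group overlapped with control. It was 1.17-fold lower with shAD4-1 (log2 fold change -0.23, SE 0.07, edgeR adjusted p = 0.00818) and 1.26-fold lower with shAD4-2 (-0.33, SE 0.07, edgeR adjusted p = 0.000461), and the first call was lost without shAD4-1 replicate 2 (-0.17, edgeR adjusted p = 0.0652).

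Mxi1 encodes MXI1, the MXD2 protein. It had 23.5, 22.2 and 22.5 FPKM in shAD4-1 cells, 22.1, 20.4 and 21.1 FPKM in shAD4-2 cells and 20.7, 21.1 and 20.0 FPKM in control cells. All shAD4-1 libraries were above the controls, and those of shAD4-2 overlapped with them on this scale. With shAD4-1 it rose 1.15-fold (log2 fold change 0.2, SE 0.04, edgeR adjusted p = 0.000528). With shAD4-2 the log2 fold change was 0.1 (SE 0.04, edgeR adjusted p = 0.0579), and over the 19 alternatives it lay between 0.04 and 0.13, with adjusted p from 0.0349 (edgeR) to 0.421 (limma). It was called with RLE scaling, with DESeq2, and without control replicate 1, control replicate 2 or shAD4-2 replicate 2, and with none of the others. Between the hairpins Mxi1 did not pass the test (-0.1, SE 0.04, edgeR adjusted p = 0.0842). Exons of Mxi1 overlap those of Gm10197, listed as protein coding on the opposite strand, in GENCODE M21. Gm10197 was not among the counted genes either, and its share in the Mxi1 reads was not tested.

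Promoters of 8 of the 9 listed members, all but Myc, were matched in RefSeq's GRCm38.p6, another build than the GRCm39 of the counts, as windows from 250 bases before to 50 after each transcript start. The E-box CACGTG, which reads the same on both strands, was searched in them because it is the site of MYC-MAX and MXD-MAX pairs. It was found at 1 place each for Mnt, Mxd4, Mlx and Max, in 4 of 10 windows of the members, and in none for Mxd1, Mxd3, Mxi1 and Mycl. Of all 32851 windows 7.15% held it, and of those of tested genes 9.72%. The 250 bases before the start are shown for Mnt, which rose, and for Mxd4 and Mxd3, which fell, with the E-box in capitals.
Mnt (chr11:74830674-74830923, plus strand): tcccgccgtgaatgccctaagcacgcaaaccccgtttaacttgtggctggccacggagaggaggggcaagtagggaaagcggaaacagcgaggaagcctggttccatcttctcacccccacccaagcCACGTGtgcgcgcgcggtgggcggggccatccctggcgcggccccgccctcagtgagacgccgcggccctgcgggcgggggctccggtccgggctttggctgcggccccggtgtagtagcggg
Mxd4 (chr5:34187711-34187960, minus strand): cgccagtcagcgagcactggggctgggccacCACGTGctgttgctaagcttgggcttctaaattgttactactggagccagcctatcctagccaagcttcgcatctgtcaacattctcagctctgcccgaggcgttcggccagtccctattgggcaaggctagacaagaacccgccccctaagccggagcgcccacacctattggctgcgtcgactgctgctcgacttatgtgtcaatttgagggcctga
Mxd3 (chr13:55329732-55329981, minus strand): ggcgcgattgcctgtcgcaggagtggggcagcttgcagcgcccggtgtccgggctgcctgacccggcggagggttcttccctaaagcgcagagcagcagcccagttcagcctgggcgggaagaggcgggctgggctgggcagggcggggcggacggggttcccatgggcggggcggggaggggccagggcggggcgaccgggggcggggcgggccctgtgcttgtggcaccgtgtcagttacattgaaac
The E-box begins 123 bases before the start of Mnt and 219 before that of Mxd4, so a member that rose and one that fell both carry it, and Mxd3, which fell with them, does not within this window. A match of letters is a description and not evidence of binding.

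Per gene length, the order of the levels differed between the groups. In shAD4-1 cells Max (30.7 ± 0.6 FPKM, SD, n = 3) led, before Mxi1 (22.7 ± 0.672), Myc (17.6 ± 0.493), Mlx (14.6 ± 0.958), Mxd4 (13.2 ± 0.892) and Mnt (11.3 ± 0.463). In shAD4-2 cells the order was the same, with Max at 34.9 ± 1.62, Myc at 18.4 ± 0.856, Mxd4 at 12.4 ± 1.63 and Mnt at 10.8 ± 0.43 FPKM. In control cells Mxd4 (34.4 ± 2.97 FPKM) and Max (32.4 ± 1.38) shared the top with overlapping libraries, and Mxi1 (20.6 ± 0.544), Mlx (14.1 ± 1.47), Myc (8.86 ± 1.09) and Mnt (5.86 ± 0.334) followed. Neighbours whose libraries overlapped were Mlx and Mxd4 in shAD4-1, Mxd4 and Mnt in shAD4-2, and Mxd4 and Max as well as Mxd1 and Mxd3 in control cells. Myc thus stood above Mlx and Mxd4 in the hairpin cells and below both in control cells.

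Summed by role, the transcripts of MYC proteins (Myc and Mycl) came to 17.7 ± 0.541 FPKM in shAD4-1, 18.5 ± 0.837 in shAD4-2 and 8.91 ± 1.1 in control cells (SD, n = 3). Those of the antagonists (Mxd1, Mxd3, Mxd4, Mxi1 and Mnt) came to 53.5 ± 1.96, 51.0 ± 2.69 and 71.2 ± 2.64 FPKM in the same order of groups. The ratio of antagonist to MYC transcripts was 3.07, 2.97 and 3.03 in the shAD4-1 libraries, 2.98, 2.56 and 2.76 in the shAD4-2 libraries and 6.76, 8.69 and 8.79 in the control libraries, with no overlap between either hairpin and control. These are sums of transcripts chosen by role and carry no test, and protein levels were not measured. They restate changes of single members given above, such as those of Myc and Mxd4. A lack of overlap is common here: by CPM it held for 68% and 70.6% of all tested genes with shAD4-1 and shAD4-2. The sum of antagonists also changed in its makeup. Mnt made up 21.2 ± 0.307% of it in shAD4-1, 21.3 ± 1.4% in shAD4-2 and 8.25 ± 0.508% in control cells, and Mxd4 24.6 ± 0.927%, 24.2 ± 2.11% and 48.4 ± 2.48%. Transcripts of MYC proteins per Max transcript were 0.577 ± 0.00643 in shAD4-1, 0.531 ± 0.0399 in shAD4-2 and 0.274 ± 0.0294 in control cells.

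**Figure D3:**
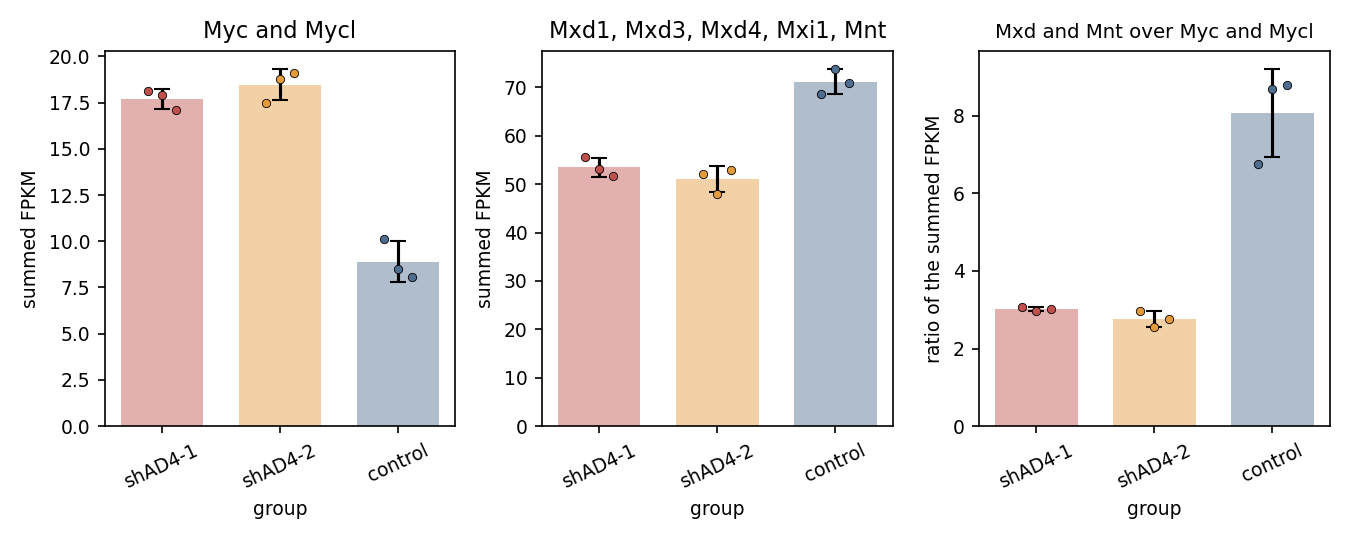
Summed FPKM of Myc and Mycl, summed FPKM of the 5 antagonist genes, and the ratio of the second to the first, per library (points) with group mean (bar) and SD (error bar, n = 3). The ratio lies at 2.56 to 3.07 in the hairpin libraries and at 6.76 to 8.79 in the control libraries.

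Of the factors that pair with MLX or MAX outside the list, Mlxip (MondoA) was 1.23-fold lower with shAD4-1 and 1.18-fold lower with shAD4-2 (edgeR adjusted p = 8.97e-05 and 0.000631). Mga, the giant MAX partner, averaged 89.2 ± 2.31, 95.5 ± 1.26 and 90.4 ± 5.53 CPM in shAD4-1, shAD4-2 and control cells and passed the test with neither. Txnip, the textbook target of MLXIP and MLX and an inhibitor of glucose uptake, averaged 429 ± 6.18 CPM in shAD4-1, 363 ± 4.74 CPM in shAD4-2 and 898 ± 120 CPM in control cells (SD, n = 3). It was 2.09-fold and 2.48-fold lower (edgeR adjusted p = 6.29e-11 and 3.4e-12).

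Genes known as MYC targets in ribosome making moved mostly upwards. Of 25 tested, 19 rose and 4 fell with shAD4-1, and 20 rose and 3 fell with shAD4-2, where 32.7% and 34.2% of all tested genes were called higher and 32.3% and 34.8% lower. The median log2 fold change of the list was 0.49 and 0.52, beside -0.01 over all tested genes in each. Ncl, the major nucleolar protein nucleolin, averaged 2022 ± 34.5 CPM in shAD4-1, 2319 ± 32.1 CPM in shAD4-2 and 1155 ± 33.6 CPM in control cells (1.75-fold and 2.01-fold, edgeR adjusted p = 5.52e-13 and 2.11e-14). Nop58, a core protein of box C/D small nucleolar particles, rose 1.77-fold and 1.93-fold, and Mybbp1a, a nucleolar MYB-binding protein, 1.89-fold and 1.84-fold. Rcl1, a processing factor of the small subunit, was lower by 1.58-fold and 1.6-fold, and it is named after its values were seen.

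MYC targets of growth and metabolism were called in both directions. Of 23 tested, 13 rose and 4 fell with shAD4-1 and 15 rose and 3 fell with shAD4-2, with medians of 0.24 and 0.31. That is 73.9% and 78.3% called, beside 65% and 69% of all tested genes, where 32.7% and 34.2% were higher and 32.3% and 34.8% lower. Tfam, which packages and transcribes mitochondrial DNA, rose 1.78-fold and 1.93-fold. Shmt2, the mitochondrial serine hydroxymethyltransferase, rose 1.65-fold and 1.74-fold, and Phb2, prohibitin 2, 1.53-fold and 1.5-fold. The glycolytic targets Ldha, lactate dehydrogenase A, and Hk2, hexokinase 2, fell, Ldha by 1.49-fold and 1.68-fold and Hk2 by 1.21-fold and 1.43-fold. The glucose transporter Slc2a1 rose 1.31-fold and 1.11-fold. Ldha, Hk2 and Slc2a1 are named after their values were seen.

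Genes known to be repressed by MYC showed no shared direction. Of 10 tested, 4 rose and 3 fell with shAD4-1, and 6 rose and 4 fell with shAD4-2, with medians of 0.18 and 0.36. The share called was 70% with shAD4-1, close to the 65% of all tested genes, and 10 of 10 with shAD4-2, beside 69%. Those that rose included Gadd45a, a DNA-damage-inducible growth inhibitor, at 248 ± 6.1 CPM in shAD4-1, 204 ± 3.59 CPM in shAD4-2 and 132 ± 6.75 CPM in control cells. Ndrg2 rose 5.71-fold and 5.61-fold, and Ccnd1, cyclin D1, 2.11-fold and 2.07-fold. Cdkn1c, a CDK inhibitor named after its values were seen, averaged 4.95 ± 0.542, 4.57 ± 0.495 and 0.241 ± 0.192 CPM in shAD4-1, shAD4-2 and control cells. Called lower with both hairpins were Cdkn2c (log2 fold changes -0.43 and -0.56) and Gadd45g (-0.93 and -0.84), the latter at a mean of at most 2.78 CPM. Cdkn1a was called lower with shAD4-1 (-0.12) and higher with shAD4-2 (0.24). Cdkn2c, Gadd45g and Cdkn1a are also named after their values were seen.

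**Figure D4:**
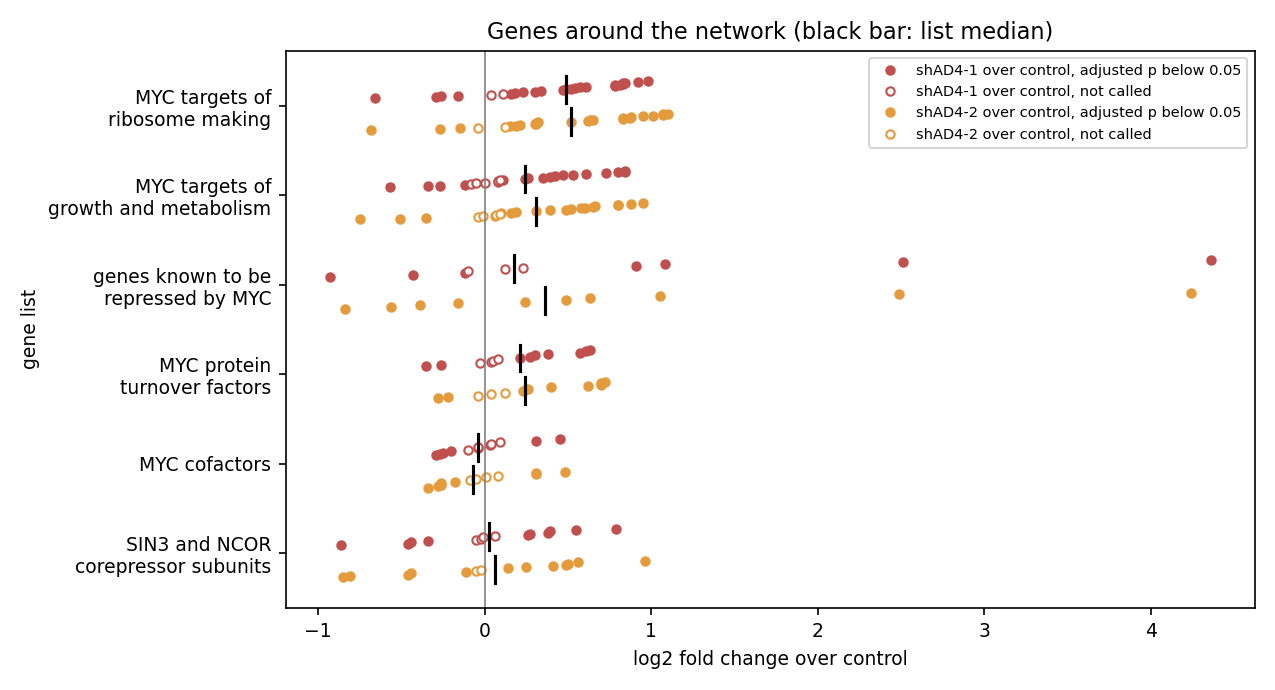
Log2 fold change over control of each tested gene in 6 lists of genes around the network, for shAD4-1 (upper row of each list) and shAD4-2 (lower row). Filled points passed an adjusted p of 0.05 in edgeR and black bars are list medians. The ribosome-making targets have medians of 0.49 and 0.52, whereas the medians of cofactors and corepressors lie around 0. Single corepressors moved both ways, such as Sin3b at -0.86 and -0.81 and Rbbp7 at 0.55 and 0.56.

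Factors that act on MYC protein stability were higher for 7 and lower for 2 of 13 with shAD4-1, and higher for 8 and lower for 2 with shAD4-2 (medians 0.21 and 0.24). The 69.2% and 76.9% called stand beside 65% and 69% of all tested genes. Usp36, a nucleolar deubiquitinase that stabilises MYC, rose 1.55-fold and 1.65-fold, and Stub1, a ubiquitin ligase known to target MYC, 1.53-fold and 1.54-fold. These act in opposing ways on the protein, which was not measured. MYC cofactors showed no common shift, with 2 higher and 4 lower of 12 for shAD4-1 and 3 higher and 5 lower for shAD4-2 (medians -0.04 and -0.07). The 50% and 66.7% called were below the 65% and 69% of all tested genes. Ruvbl1, a helicase of the chromatin complexes MYC recruits, rose 1.36-fold and 1.39-fold, and Wdr5, which anchors MYC to chromatin, 1.24-fold in each.

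The corepressors through which MXD proteins and MNT act were called in both directions, with 6 of 14 higher and 4 lower for shAD4-1 and 7 higher and 5 lower for shAD4-2 (medians 0.02 and 0.06). The share called was 71.4% and 85.7%, beside 65% and 69% of all tested genes. Sin3b, a scaffold that binds MXD proteins directly, averaged 65.1 ± 2.61 CPM in shAD4-1, 67.2 ± 4.67 CPM in shAD4-2 and 118 ± 3.28 CPM in control cells (SD, n = 3), which is 1.82-fold and 1.76-fold lower (edgeR adjusted p = 4.78e-11 and 9.29e-11). Hdac3 was 1.36-fold and 1.37-fold lower, while Rbbp7, a histone-binding subunit, rose 1.47-fold and 1.48-fold.

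The genes whose pattern over the 9 libraries was most like that of Myc were Hmga2, an architectural chromatin protein, Rapgef6, Caprin1, an RNA-binding protein, Hsph1, a chaperone, and Slc38a2, an amino acid transporter. Their Pearson r on log2 CPM with Myc was 0.998, 0.9976, 0.9974, 0.9973 and 0.9973, among 10400 genes with a mean of at least 5 CPM. The libraries share 3 group means, so high values are common: 20.8% of the compared genes had an r of at least 0.9 with Myc and 18.1% one of at most -0.9.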

How the data were processed

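The authors deposited raw read counts per gene, and separately FPKM of these genes in each library. Reads were handled with fastp, HISAT2 and HTSeq on GRCm39, per the submitters' processing notes. No source used here gives versions, annotation or strand setting. Columns were matched to samples by group and replicate number, with KD1 and KD2 read as hairpins 1 and 2. For each listed member the deposited FPKM values implied, from count and column sum, a gene length within 0.001 of a whole number.

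Counts were fitted with edgeR 4.0.16 in R 4.3.3 (filterByExpr, TMM, glmQLFit, glmQLFTest, all 9 libraries, group as the only term), adjusted by Benjamini and Hochberg over 13807 genes. SE is the log2 fold change over the square root of F, and CPM are scaled with TMM factors. FPKM were used as deposited. The scripts were tested on simulated data. Alternatives tried were scaling by RLE or by the upper quartile, DESeq2 1.42.0, 2 other filters on low counts, only the groups compared, a replicate block, each library left out, and limma 3.58.1 on log2 FPKM with a pseudocount of 1, of 0.1, or of 1 with a minimum of 1 FPKM in 3 libraries.

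Members and lists were chosen with earlier results of these data known. The text names all members, Pvt1, up to 3 genes per list with the smallest larger adjusted p of the comparisons with control, the 5 genes most like Myc, and genes marked as named after their values were seen. Some genes that this rule picks are not reported here.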

Additional observations from a re-analysis of the deposited data

Results flagged for a closer look

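Max differed between the hairpins by the test of that difference, with a log2 fold change of 0.18 for shAD4-2 over shAD4-1 (SE 0.05, edgeR adjusted p = 0.00651), higher in 3 of 3 shAD4-2 libraries. Other named genes differed between the hairpins in the same fit, in which 27.4% of all tested genes were called. Many named genes were not called there, among them Mybbp1a, Tfam, Shmt2, Phb2, Ndrg2, Ccnd1, Sin3b and Rbbp7. Ncl was higher in shAD4-2 than in shAD4-1 by 0.2 on the log2 scale (SE 0.03, edgeR adjusted p = 0.000354), and Nop58 by 0.12 (SE 0.03, edgeR adjusted p = 0.0151). Gadd45a was lower in shAD4-2, at -0.28 (SE 0.04, edgeR adjusted p = 6.42e-05), and so were Txnip, at -0.24 (SE 0.06, edgeR adjusted p = 0.00867), Ldha, at -0.18 (SE 0.04, edgeR adjusted p = 0.0041), and Hk2, at -0.24 (SE 0.06, edgeR adjusted p = 0.0089). Relative to control, Ncl, Nop58 and Gadd45a were higher and Txnip, Ldha and Hk2 lower with each hairpin. The call was lost without shAD4-1 replicate 1 or 2 or shAD4-2 replicate 2 for Nop58 (edgeR adjusted p up to 0.0675) and without shAD4-2 replicate 2 for Hk2 (-0.17, edgeR adjusted p = 0.0667). Psmc3ip, which overlaps Mlx, was higher in shAD4-2 by 0.44 (SE 0.09, edgeR adjusted p = 0.00131). Cdkn1a was higher in shAD4-2 by 0.36 (SE 0.04, edgeR adjusted p = 3.69e-06), and Slc2a1 was lower, at -0.24 (SE 0.05, edgeR adjusted p = 0.0035).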

How the results depend on the processing

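Myc, Mnt, Mxd3 and Mxd4 kept their direction and their call against control in all 19 alternatives in which they were tested, with log2 fold changes of 0.92 to 1.16 and 0.98 to 1.22 for Myc with shAD4-1 and shAD4-2. The number of members called ranged from 5 to 7 with shAD4-1 and from 5 to 8 with shAD4-2, and without control replicate 1 it was 8, with 5 higher against 3 with all libraries and Mga also called higher, 1 of its list. Leaving out single libraries gave 3 to 5 members higher with shAD4-2. Between the hairpins 2 members were called instead of 1 when the fit held only the groups compared, and 1 to 2 when single libraries were left out, the added call being 1 lower (0 to 1 when single libraries were left out), that of Mxi1. Values that changed sign were all uncalled: Max with shAD4-1 (-0.05 to 0.0), Mga with shAD4-1 (0.04 and 0.0), Mycl between the hairpins (-0.72 to 0.22) and Mlx between the hairpins (-0.04 to 0.05), each when a single library was left out, and Psmc3ip with shAD4-1 (-0.02 and -0.03 with limma on log2 FPKM with pseudocounts of 1 and 0.1, and -0.01 to 0.07 when single libraries were left out). The cause was not tested. Divided by the TMM factor, a choice made after seeing the data, Max and Mlx summed to 46.0 FPKM in shAD4-1 cells, against 45.3 as deposited. The replicate numbers did not pair the libraries (correlations of same-numbered deviations from -0.124 to 0.00225), and with the replicate block 6, 6 and 1 members were called, as without it. Depth limits Mycl, at 5 to 26 reads a library.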
